A study of Mus musculus with 4 samples.

Results

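The Kupffer cell marker genes are 10 genes, Clec4f, Adgre1, Cd5l, Timd4, Marco, Vsig4, C1qa, C1qb, C1qc and Csf1r, chosen by name out of the 21938 protein-coding genes located with GENCODE vM21 in GRCm38. Accessible chromatin was mapped by ATACseq and the histone variant H2A.Z by ChIPseq in male C57Bl/6 livers of mice aged 8 to 12 weeks on a normal diet. The WT liver carried floxed Uhrf1 alleles without Cre (Uhrf1-fl/fl), and the Uhrf1hepKO liver was Uhrf1-fl/fl;Alb:Cre, in which the albumin promoter drives Cre in hepatocytes. Uhrf1 encodes a factor that maintains DNA methylation, and the deletion was aimed at hepatocytes and not at Kupffer cells. There was 1 liver per genotype, used for both assays, so there were 4 libraries with 1 library per group, no replicate error and no test. The question here was what whole liver lists of peaks hold at genes that mark a cell type other than the hepatocyte.

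Kupffer cells are the resident macrophages of the liver. They line the sinusoids, where they take up bacteria, dying cells and old red blood cells from the blood. They are far fewer than hepatocytes, so their chromatin is a small part of what is extracted from whole liver. In ATACseq the Tn5 transposase cuts accessible DNA, and H2A.Z is found mostly in the nucleosomes beside the transcription start sites (TSSs) of active and poised genes. In such bulk samples, fewer cells of a type and fewer open sites per cell cannot be told apart.

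Sequences upstream of Kupffer cell marker genes and under the only ATACseq peak found in them are shown for their CpGs, the sites of DNA methylation. They hold fewer CpGs per 100 bp than the DNA under the ATACseq peaks did on average (5.70 in WT and 5.15 in Uhrf1hepKO). Each is written 5′ to 3′ in the direction of transcription, from the RefSeq FASTA of GRCm38, with every CpG in capitals. The upstream sequences are the 250 bases before the TSS. They are at chr3:87357631-87357880 on the plus strand for Cd5l, and on the minus strand at chr6:83656188-83656437 for Clec4f, chrX:96293439-96293688 for Vsig4 and chr4:136886188-136886437 for C1qb, and they hold 0, 2, 3 and 6 CpGs. Per 100 bp this is 0, 0.8, 1.2 and 2.4, compared with 0.826 across the genome. The Marco peak, on the minus strand at chr1:120480713-120480954, holds 1 CpG in 242 bp. For contrast, the WT ATACseq peak at the promoter of Irf8, a macrophage transcription factor, holds 20 CpGs in 143 bp at chr8:120736218-120736360 on the plus strand.
Cd5l upstream: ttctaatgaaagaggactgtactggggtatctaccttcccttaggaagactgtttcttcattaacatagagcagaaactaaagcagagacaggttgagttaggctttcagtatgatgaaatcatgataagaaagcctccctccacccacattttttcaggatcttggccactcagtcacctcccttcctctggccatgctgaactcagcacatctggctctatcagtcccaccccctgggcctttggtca
Clec4f upstream: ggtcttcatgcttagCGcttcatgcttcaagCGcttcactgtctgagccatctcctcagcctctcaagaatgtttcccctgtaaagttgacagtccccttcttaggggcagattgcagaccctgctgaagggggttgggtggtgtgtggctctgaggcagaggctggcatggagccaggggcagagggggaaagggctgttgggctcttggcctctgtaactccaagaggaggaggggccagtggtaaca
Vsig4 upstream: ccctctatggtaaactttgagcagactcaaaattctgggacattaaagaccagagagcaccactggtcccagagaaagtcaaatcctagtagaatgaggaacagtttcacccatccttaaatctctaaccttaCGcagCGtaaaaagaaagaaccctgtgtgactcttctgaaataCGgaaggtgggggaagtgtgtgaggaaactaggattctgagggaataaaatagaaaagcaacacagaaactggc
C1qb upstream: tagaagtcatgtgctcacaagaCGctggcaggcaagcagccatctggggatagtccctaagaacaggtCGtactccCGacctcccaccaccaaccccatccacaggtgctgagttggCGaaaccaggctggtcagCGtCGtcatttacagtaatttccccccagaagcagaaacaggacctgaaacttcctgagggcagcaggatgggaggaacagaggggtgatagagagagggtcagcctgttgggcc
Marco peak: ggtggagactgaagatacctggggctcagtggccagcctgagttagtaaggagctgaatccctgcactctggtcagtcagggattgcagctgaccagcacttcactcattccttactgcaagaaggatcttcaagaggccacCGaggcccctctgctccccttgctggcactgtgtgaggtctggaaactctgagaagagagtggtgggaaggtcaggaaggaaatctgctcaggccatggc
Irf8 peak: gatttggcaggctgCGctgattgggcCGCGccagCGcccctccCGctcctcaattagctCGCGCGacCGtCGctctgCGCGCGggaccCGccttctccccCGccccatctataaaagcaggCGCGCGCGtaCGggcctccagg

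Kupffer cell marker genes carried almost no peaks. A gene was counted when a peak overlapped the gene or the 10 kb on either side of its TSS by at least 1 bp. In the WT ATACseq library, 1 of the 10 genes (10%, exact Clopper-Pearson 95% interval 0.253 to 44.5%) had a peak, compared with 39.2% of all protein-coding genes. In the Uhrf1hepKO ATACseq library none of the 10 did (0%, interval 0 to 30.9%), compared with 37.7%. H2A.Z gave 1 of 10 in each genotype, compared with 64.3% of protein-coding genes in WT and 62.4% in Uhrf1hepKO. The gene with the ATACseq peak was Marco, and the gene with the H2A.Z peaks was Csf1r. Clec4f, Adgre1, Cd5l, Timd4, Vsig4, C1qa, C1qb and C1qc had no peak in any of the 4 libraries (8 of 10, 80.0%, interval 44.4 to 97.5%), which was the case for 29.5% of protein-coding genes. The share of all genes lay inside the members' interval for ATACseq in WT and above it in the other 3 libraries. These intervals cover counting error in a list of 10 genes, and the windows of C1qa, C1qb and C1qc overlap each other, so these 3 genes were not independent.

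Marco encodes a scavenger receptor that binds bacteria and particles. Its peak in the WT ATACseq list was 242 bp wide and lay 24191 bp downstream of the TSS, in intron 12 of the 17-exon transcript Marco-201 (gene ENSMUSG00000026390 at chr1:120474538-120505024, minus strand). It overlapped no exon. The q-value of this peak was 0.0691. Its fold, the number of reads stacked at the site relative to the background, was 3.44, above 4.49% of the WT ATACseq peaks. This fold is an average over the peak. It corresponds to about 8 reads, or fragments if read pairs were piled up, over a background of 1.56 reads per base. That background was read from the most frequent fold of the list. The exact Poisson 95% interval of 8 reads was 3.45 to 15.8, which leaves out the error of the background. From 8 reads the −log10 p-value would be 4.43, and the deposited one was 4.32. The Uhrf1hepKO ATACseq list had no peak within 89.5 kb of this site, and 8.74% of protein-coding genes likewise had an ATACseq peak in WT but not in Uhrf1hepKO. The nearest H2A.Z peaks were 210 kb away in WT and 174 kb away in Uhrf1hepKO, whereas 66.7% of all WT ATACseq peaks had an H2A.Z peak within 1 kb. Nothing was called at the Marco promoter in any library. The peak was therefore among the weakest of its list and was seen in 1 library only, and the difference between genotypes could not be tested. Each of the 211 32-base words in it occurred once in the genome, and it held 0.413 CpGs per 100 bp, compared with 5.70 per 100 bp under all WT ATACseq peaks and 0.826 across the genome.

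Csf1r encodes the receptor for CSF1 and IL-34, on which macrophages depend for survival. It was the only Kupffer cell marker gene with a peak in both genotypes, in H2A.Z, a state shared by 59.8% of protein-coding genes. The gene, ENSMUSG00000024621, is on the plus strand at chr18:61100598-61132149. In WT the H2A.Z peak was 101 bp wide at chr18:61110453-61110553 with a fold of 4.87 and a q-value of 2.45e-07, and 38.4% of the peaks in the list had a lower fold. In Uhrf1hepKO it was 112 bp wide at chr18:61110452-61110563 with a fold of 6.04 and a q-value of 1.02e-11, and 61.2% of that list was lower. The Uhrf1hepKO peak covered all 101 bp of the WT peak. Across all H2A.Z peaks, 70.0% of those in WT overlapped a Uhrf1hepKO peak and 75.6% of those in Uhrf1hepKO overlapped a WT peak.

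The Csf1r peaks lay inside the gene, not at its promoter. They spanned the end of exon 4 (61110221 to 61110505) of the 22-exon transcript Csf1r-201, with 53 bp in the exon in WT and 54 bp in Uhrf1hepKO, and the rest in the following intron. The summits were 9878 and 9928 bp from the 5′ end of the gene, and 4904 and 4954 bp from the start of Csf1r-201. At the summit, 19 reads in WT (exact Poisson 95% interval 11.4 to 29.7) stood over a background of 3.10 reads per base, and 25 reads in Uhrf1hepKO (interval 16.2 to 36.9) stood over 3.30. These intervals cover counting error only. With 1 unscaled library per genotype, whether H2A.Z at Csf1r differed between the genotypes could not be assessed. No ATACseq peak accompanied them. The nearest, 66.5 kb away in WT, was 101 bp from the TSS of Hmgxb3.

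For the 8 genes without a peak, the nearest peaks mostly belonged to other genes. Among the uptake receptors, the TSS of Clec4f (chr6:83644542-83656187, minus strand), a C-type lectin of Kupffer cells in mice, was 83.6 kb from the nearest WT ATACseq peak and 83.0 kb from the nearest WT H2A.Z peak. Both lay close to the TSS of Stambp, where the Uhrf1hepKO libraries had peaks as well. For Timd4 (chr11:46810800-46844332, plus strand), which binds phosphatidylserine on dying cells, the nearest H2A.Z peaks were 103.7 kb away in both genotypes, at the promoter of Timd2. The nearest ATACseq peak to Timd4 was 230.1 kb away in WT and 88.5 kb away in Uhrf1hepKO. Vsig4 (chrX:96247203-96293438, minus strand), a complement receptor that clears bacteria from the blood, was the most isolated of the 10 genes in every library. Its nearest ATACseq peaks were 336.4 kb away in WT, at the promoter of Las1l, and 418.8 kb away in Uhrf1hepKO, and its nearest H2A.Z peaks were 324.7 kb away in both.

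The secreted proteins were similarly far from peaks. Cd5l (chr3:87357881-87371073, plus strand), a scavenger protein that macrophages release into the blood, was 150.5 kb from an ATACseq peak and 150.6 kb from an H2A.Z peak in WT. In Uhrf1hepKO these distances were 53.5 and 50.6 kb, to peaks whose nearest protein-coding TSS was that of Fcrl5, with folds of 3.49 and 4.88. C1qa, C1qb and C1qc encode the 3 chains of C1q, which starts the classical complement pathway, and sit side by side on the minus strand at chr4:136895917-136898803, chr4:136880129-136886187 and chr4:136889804-136893065. In WT the nearest peaks to all 3 were at Zbtb40, 149.8 to 162.5 kb away for ATACseq and 149.0 to 161.6 kb away for H2A.Z, and the H2A.Z distances in Uhrf1hepKO had the same range. In Uhrf1hepKO an ATACseq peak nearest to the TSS of Ephb2 (fold 4.11) was 44.8 to 57.5 kb away. Adgre1 (chr17:57358691-57483527, plus strand) encodes F4/80, the surface protein most used to recognise mouse macrophages. Its nearest ATACseq peaks were 110.7 kb away in WT and 110.8 kb away in Uhrf1hepKO, nearest to the TSS of Gpr108. Its nearest H2A.Z peak was 81.7 kb upstream in WT, nearest to the TSS of Vav1, and 23.5 kb upstream in Uhrf1hepKO (fold 5.35). Among these nearest peaks outside the regions examined, it was the only one for which the nearest protein-coding TSS was that of a Kupffer cell marker gene.

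**Figure D1:**
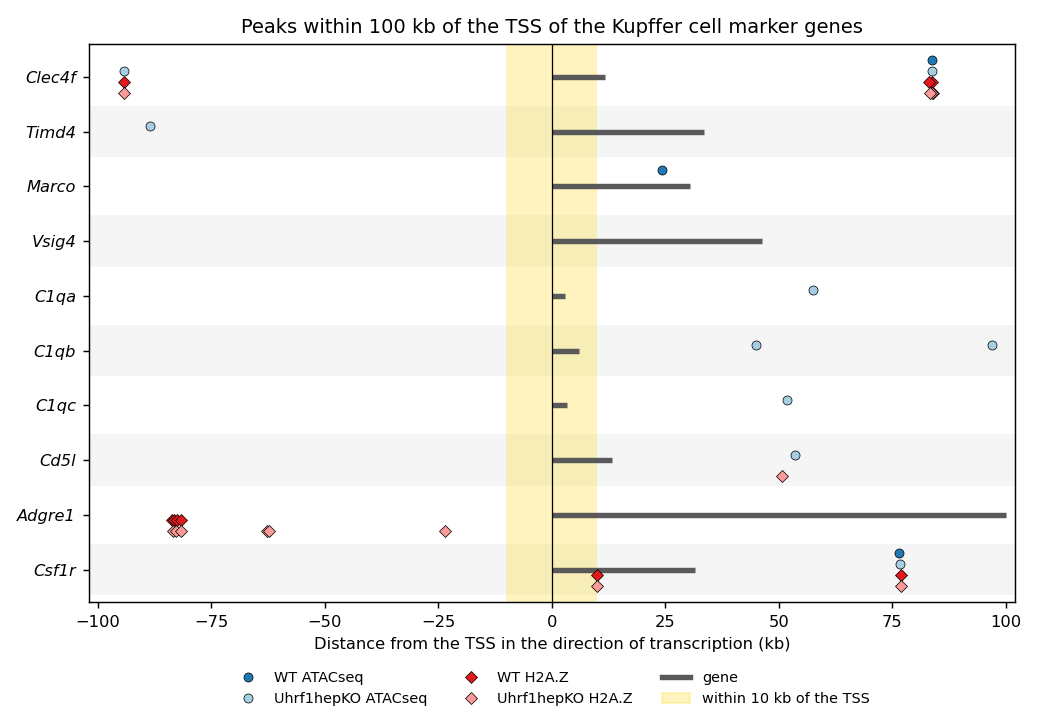
Peaks of the 4 libraries within 100 kb of the TSS of each Kupffer cell marker gene, with distance in kb in the direction of transcription on the horizontal axis. Circles are ATACseq peak centres, diamonds are H2A.Z summits, grey bars are the genes (Adgre1 runs past the edge) and the shaded band is the 10 kb on either side of the TSS. Only the WT ATACseq peak in Marco and the H2A.Z pair in Csf1r fall in a gene or band, and Vsig4 has no peak in view.

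Measured from the TSS, the nearest ATACseq peak was a median of 150.2 kb away for the 10 genes in WT, compared with 32.1 kb for all protein-coding genes. In Uhrf1hepKO it was 80.1 kb, compared with 34.9 kb. The gap was wider for H2A.Z, at 149.8 kb compared with 3.08 kb in WT and 126.4 kb compared with 4.29 kb in Uhrf1hepKO. Of all protein-coding genes, 20.9% and 33.1% were at least as far from an ATACseq peak as the median Kupffer cell marker gene in WT and Uhrf1hepKO, and 9.97% and 11.7% were as far from an H2A.Z peak. The Kupffer cell marker genes thus stood away from most genes by H2A.Z, and less so by ATACseq, where many genes are far from a peak. Up to 100 kb away, the median protein-coding gene had 7 H2A.Z peaks in WT and 6 in Uhrf1hepKO, and the median Kupffer cell marker gene had 0 in both.

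**Figure D2:**
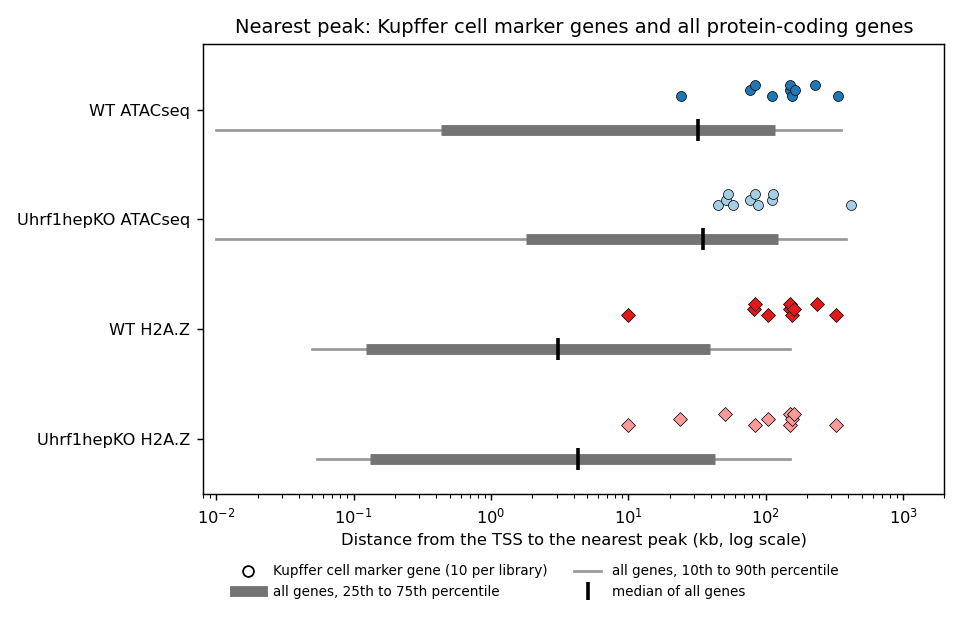
Distance from the TSS to the nearest peak in kb on a log scale, for the 10 Kupffer cell marker genes (coloured symbols) and all protein-coding genes (grey bars with the median as a black tick), in each library. The grey 10th to 90th percentile line is drawn from 0.01 kb where it reaches 0. For H2A.Z, all Kupffer cell marker genes lie to the right of the median of all genes, at 3.08 kb in WT and 4.29 kb in Uhrf1hepKO.

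The length of the regions searched did not set these genes apart. The median region was 31.8 kb for the Kupffer cell marker genes and 27.4 kb for all protein-coding genes. Together the regions covered 394 kb, in which the WT H2A.Z list had 2.54 peaks per Mb (exact Poisson 95% upper limit 14.1) compared with 29.0 per Mb over the regions of all protein-coding genes. In Uhrf1hepKO H2A.Z the density was also 2.54 per Mb, compared with 26.4. For ATACseq it was 2.54 per Mb in WT and 0 in Uhrf1hepKO (upper limit 9.36), compared with 6.67 and 6.59. The density over all genes exceeded the members' upper limit for H2A.Z and lay below it for ATACseq. By the share of genes, in contrast, Uhrf1hepKO ATACseq was below all genes, so the ATACseq difference depended on the measure used. The upper limits treat peaks as independent, although H2A.Z peaks can come in groups.

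Promoter CpG content moved with these shares. The Kupffer cell marker genes held a median of 6.5 CpGs in the 500 bp on either side of the TSS, compared with 41 for all protein-coding genes. Cd5l had 3, Adgre1, Timd4, Marco and Vsig4 had 6 each, Clec4f had 7, Csf1r had 10, C1qc had 12, C1qa had 18 and C1qb had 21. When protein-coding genes were divided into 10 classes by this count, all 10 members fell in the 4 lowest classes. The share of genes with a WT H2A.Z peak ran from 15.9 to 56.4% over these classes. Averaged over the classes of the members, it was 40.1% in WT and 38.5% in Uhrf1hepKO, and the share with an ATACseq peak was 17.6% and 18.3%. Genes of these classes had no peak in any library in 52.1% of cases. The H2A.Z shares and both ATACseq shares of these CpG-poor genes lay inside the intervals of the 10 Kupffer cell marker genes, as did the 52.1% without any peak. Set against genes with as many CpGs, the difference in the share of genes with a peak was therefore within counting error. The density of peaks and the distances to the nearest peak were not compared in this way.

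**Figure D3:**
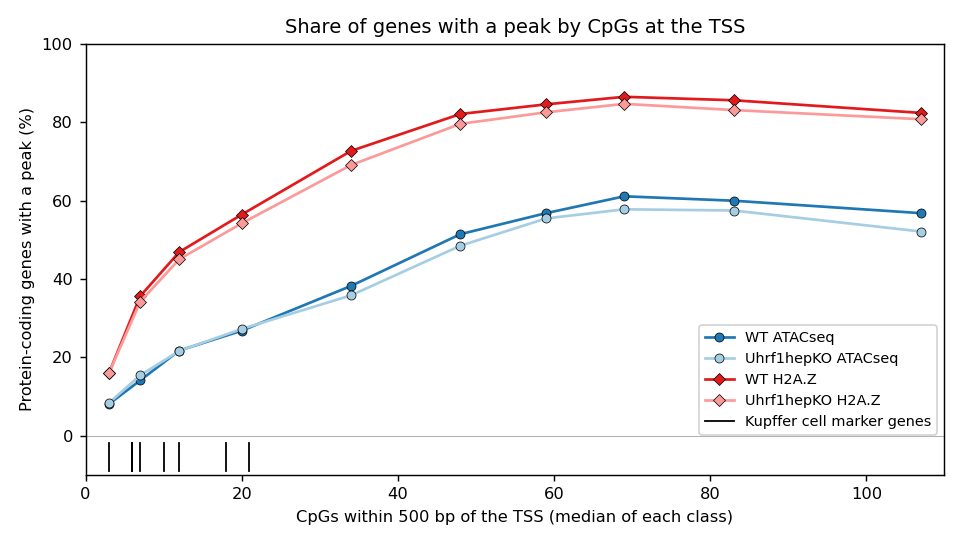
Share of protein-coding genes with a peak (%) in 10 classes of genes ordered by how many CpGs lie up to 500 bp from the TSS, placed at the median of the class, for the 4 libraries. Black ticks below 0 mark the CpG numbers of the 10 Kupffer cell marker genes (4 of them coincide at 6), all at 21 or fewer, where the shares are lowest.

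Short motifs bound by macrophage factors were present in these promoters. RefSeq promoters (250 bases before to 50 after the start, GRCm38.p6) were matched by symbol for 7 of the 10 genes, C1qb, C1qc, Cd5l, Clec4f, Marco, Timd4 and Vsig4. On either strand, the PU box GAGGAA was in 5 of the 7, compared with 28.3% of 32851 promoters. The ETS motif GGAAGT was in 5 of 7, compared with 23.8%, and shares the letters GGAA with the PU box. The MAF motif TGCTGA was in 5 of 7, compared with 19.5%. None of the 7 held the interferon response core (3.44% of all promoters), the C/EBP motif TTGCNNAA (10.8%), the forkhead motif TGTTTAC (3.65%) or the HNF4 motif CAAAGTCCA (0.475%). The Vsig4 promoter held 2 PU boxes and 2 ETS motifs, and the Cd5l promoter held 1 PU box and 2 MAF motifs. None of the 7 motifs was in the 300 bp around the centre of the Marco peak, while 24.4% of such windows in the WT ATACseq list held a PU box. A match is a description of the letters and not of binding.

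Other macrophage genes had peaks in the same libraries, at shares near or below those of all protein-coding genes. Of 50 further macrophage genes, 12 (24.0%, exact interval 13.1 to 38.2%) had an ATACseq peak in WT and 14 (28.0%, 16.2 to 42.5%) in Uhrf1hepKO, compared with 39.2% and 37.7% of all protein-coding genes. H2A.Z peaks were found at 31 (62.0%, 47.2 to 75.4%) and 28 (56.0%, 41.3 to 70.0%) of them, compared with the 64.3% and 62.4% of all protein-coding genes. The Kupffer cell marker genes, at 1 of 10, were below these genes in H2A.Z, and the intervals did not overlap in WT. In Uhrf1hepKO they did, from 41.3 to 44.5%. In ATACseq the intervals overlapped in both genotypes.

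Of 10 macrophage transcription factors, 9 had an H2A.Z peak in each genotype, and 4 in WT and 6 in Uhrf1hepKO had an ATACseq peak. The background was 64.3% and 62.4% of all genes for H2A.Z and 39.2% and 37.7% for ATACseq, all inside the intervals of these 10 genes (55.5 to 99.7% for H2A.Z in both genotypes, and 12.2 to 73.8% and 26.2 to 87.8% for ATACseq). Without the gene body, only 50% of the factors had an H2A.Z peak in each genotype. Irf8 had its ATACseq peak at −69 bp from the TSS in WT (fold 6.54) and at −75 bp in Uhrf1hepKO (fold 6.78), the peak whose CpG-rich sequence is given above. Maf had a WT peak 67 bp downstream of the TSS (fold 4.23). Spi1, which encodes PU.1, had 6 H2A.Z peaks in WT and 5 in Uhrf1hepKO. These factors held a median of 41.5 CpGs at the TSS, as many as the median protein-coding gene, and are expressed in other cells too.

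Of 26 macrophage receptors, 4 had an ATACseq peak in each genotype (15.4%, interval 4.36 to 34.9%), below 39.2% and 37.7% of all protein-coding genes. An H2A.Z peak was found at 14 in WT and 13 in Uhrf1hepKO (53.8% and 50%). The 64.3% and 62.4% of all genes lay inside the receptor intervals for H2A.Z. Mertk, a receptor for dying cells, had the highest H2A.Z fold of the list in WT, 9.99, at −529 bp from the TSS. Of 14 lysosome, iron and antigen genes, 4 had an ATACseq peak in each genotype (28.6%, interval 8.39 to 58.1%). In WT the only peak of H2-Eb1 was also counted for H2-Aa, so these genes were not independent here or among the 50. An H2A.Z peak was found at 8 genes in WT and 6 in Uhrf1hepKO (57.1%, interval 28.9 to 82.3%, and 42.9%, interval 17.7 to 71.1%). The shares of all genes lay inside the intervals of this list in both assays. Hmox1, which breaks down heme, led in ATACseq with folds of 7.01 and 7.65 at −9633 and −9640 bp from its TSS. H2-Eb1, which presents antigen in macrophages and in B cells, had a Uhrf1hepKO ATACseq peak at −59 bp from its TSS (fold 6.68). The receptors held a median of 12 CpGs at the TSS and the lysosome, iron and antigen genes 11.5.

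**Figure D4:**
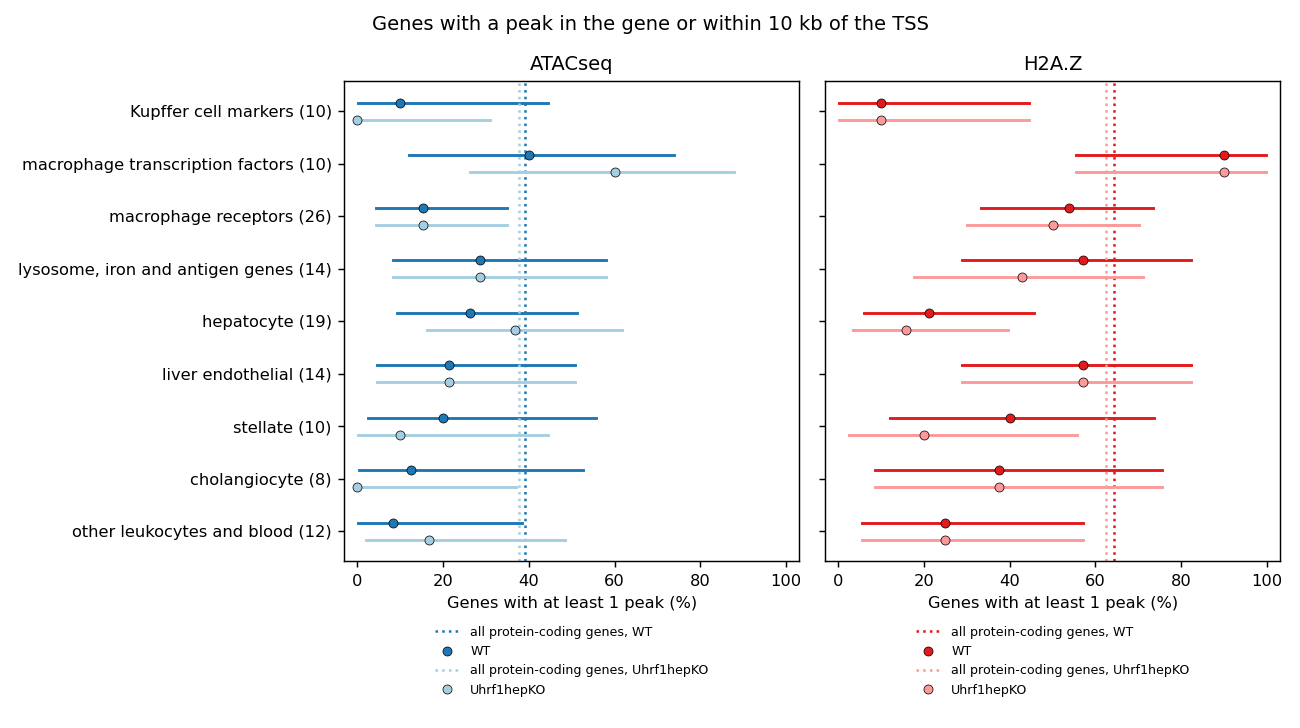
Share of the genes of each list (number of genes in brackets) with a peak in the gene or no more than 10 kb from its TSS, for ATACseq (left) and H2A.Z (right). Points are shares with exact 95% intervals that cover counting error only, and dotted lines mark all protein-coding genes. The Kupffer cell markers, at 0 to 10%, lie at the low end of both panels, and macrophage transcription factors reach 90% in H2A.Z. In ATACseq, cholangiocyte genes (12.5% in WT, 0% in Uhrf1hepKO) and genes of other leukocytes and blood (8.33% in WT, 16.7% in Uhrf1hepKO) are also low.

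The marker genes of hepatocytes, the main cell of the tissue, also had H2A.Z peaks less often than the 64.3% and 62.4% of all genes. Of 19 hepatocyte genes, 4 in WT and 3 in Uhrf1hepKO had an H2A.Z peak (21.1%, interval 6.05 to 45.6%, and 15.8%, interval 3.38 to 39.6%). An ATACseq peak was found at 5 in WT (26.3%, interval 9.15 to 51.2%) and 7 in Uhrf1hepKO (36.8%, interval 16.3 to 61.6%). These ATACseq intervals held the 39.2% and 37.7% of all genes. Alb had an ATACseq peak in Uhrf1hepKO at −114 bp from the TSS (fold 4.18). The hepatocyte genes held a median of 13 CpGs at the TSS, close to the 12 of the macrophage receptors. Of those receptors, 53.8% (interval 33.4 to 73.4%) in WT and 50% (29.9 to 70.1%) in Uhrf1hepKO had an H2A.Z peak. The receptor and hepatocyte intervals overlapped in both genotypes, and the part of CpG number in these shares was not tested. The hepatocyte intervals overlapped those of the Kupffer cell marker genes in all 4 libraries.

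By the numbers of peaks in the 4 libraries, the 8 Kupffer cell marker genes without a peak were like 6481 other protein-coding genes (29.5%). Among them were 15 of the 50 macrophage genes (30%, near the share of all genes), including Aif1, Axl and C3ar1. The pattern of Csf1r, 1 H2A.Z peak in each genotype and no ATACseq peak, was shared by 893 genes (4.07%), of which 6 were macrophage genes, including C6, Ctss and Fcgr2b. The pattern of Marco was shared by 201 genes (0.916%) and by none of the 50.

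Repeats differed among the regions. Lower-case, repeat-masked bases made up 63.3% of the Adgre1 region and 60.1% of the Vsig4 region, 32.1% at Timd4 and 17.7 to 25.1% at the other 7, compared with 35.3% across the chromosomes. The part of repeats in the absence of peaks at any of these genes was not tested.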

How the data were processed

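ATACseq and ChIPseq for H2A.Z were done on 1 WT and 1 Uhrf1hepKO liver. The authors used BWA-MEM to align reads to GRCm38.p4 and PICARD to clean and sort them, with duplicates removed for ChIPseq. MACS2 then called the peaks of each library on its own, for ATACseq in its broad mode, at a stated p-value of 0.05. How H2A.Z peaks were called, which MACS2 version was used, and whether there was a control library or a read shift are not given in the sources used here. The deposited values include a display score (10 times the −log10 q-value, not used further) and a fold enrichment ratio over a background whose source is not given. The fold was averaged over the region for ATACseq and taken at the summit for H2A.Z. The lists also hold −log10 p- and q-values and, for H2A.Z, the distance of the summit from the start of the peak. None of these values was scaled between libraries, so folds were read within a list only.

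Scaffolds and mitochondrial DNA were left out, which kept 10582 and 10764 ATACseq peaks and 51450 and 47135 H2A.Z peaks in WT and Uhrf1hepKO on chromosomes 1 to 19, X and Y. Positions are 1-based in GRCm38. A gene had a peak when a peak overlapped the gene or the 10 kb on either side of its TSS by 1 bp. The members and gene lists were chosen with earlier results of these data known. All members are named, with up to 3 genes per other list and library by highest fold, and Spi1, Alb and the genes beside peaks in addition. Some genes that the rule names are not reported here, and Tf and Fcn3 were not found by symbol. Uhrf1 had 1 peak in each of the 4 libraries by the same rule, which does not check its deletion.

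The depth is not in the lists, so it was read from the folds, for which MACS2 adds 1 to both the pileup and the background. In the H2A.Z lists, 94.1% and 91.7% of folds in WT and Uhrf1hepKO lay on even steps, and 99.5% and 99.7% of these matched the Poisson p-value of the recovered reads. The background was 3.10 and 3.30 reads per base for H2A.Z and, from the most frequent fold, 1.56 and 2.00 for ATACseq. That most frequent fold stood for 8 and 9 reads, but lower folds are listed, so the lowest number of reads that gave a peak is not known. Per the methods, ATACseq runs were single-end, yet MACS2 was given the paired-end format, so a read here may be a fragment. The highest q-values were 0.0997 and 0.0993 in the ATACseq lists, and 0.05 and 0.0489 in the H2A.Z lists. The lowest −log10 p-values from MACS2 were 4.14 and 4.17 for ATACseq and 3.76 and 3.79 for H2A.Z. The deposited lists therefore end well before the stated p-value of 0.05, and the ATACseq lists reach higher q-values than the H2A.Z lists. Exact intervals (95%) cover counting error only. The counts of peaks per gene, the overlaps of peaks and the nearest distances were tested on simulated peaks with known answers. The CpG, motif, density and read steps were not tested in this way. Alternatives changed the window, the gene model, the peak and q thresholds, the overlap and the background, 1 at a time. Tables were made in Python 3.11.15 with pandas 2.3.3 and numpy 2.4.6, intervals with scipy 1.17.1 and figures with matplotlib 3.10.9.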

Additional observations from a re-analysis of the deposited data

How the results depend on the processing

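Of 85 values recomputed under alternatives, 73 stayed within the exact interval of the main value. For the counts of Kupffer cell marker genes with a peak, 36 of 40 did, with counts from 0 to 1. These intervals are wide for short lists, for example 0.253 to 44.5% for 1 of 10 genes, so the criterion was lenient. The WT ATACseq count (Marco) fell to 0 with the 10 kb window without the gene body, with peaks at or above the median fold, and with q at or below 0.01. The WT H2A.Z count (Csf1r) was 0 with peaks at or above the median fold, and so 0 of the Uhrf1hepKO Csf1r peaks then overlapped a WT peak. With genes of as many promoter CpGs as background, the share of protein-coding genes with a peak was 17.6% and 18.3% for ATACseq and 40.1% and 38.5% for H2A.Z in WT and Uhrf1hepKO. Without the gene body, macrophage transcription factors with an H2A.Z peak were 50% in WT and 50% in Uhrf1hepKO, and liver endothelial genes with a Uhrf1hepKO ATACseq peak were 0. These moves follow from fewer bases searched, fewer peaks kept or another set of genes. No value was possible for peaks of the members in Uhrf1hepKO ATACseq, or for those in WT at or above the median fold, because none was left. No paired analysis was possible because each group had 1 library and no result came from a test. The ATACseq background was thin, at 1.56 reads per base in WT. Whether weak sites in a minor cell type could be detected at this depth was not tested.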

Other observations

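Other cells of the liver gave values of the same kind. Of 14 liver endothelial genes, 8 had an H2A.Z peak in each genotype (57.1%, interval 28.9 to 82.3%), and 3 had an ATACseq peak in each (21.4%, interval 4.66 to 50.8%). Among all protein-coding genes, 64.3% in WT and 62.4% in Uhrf1hepKO had an H2A.Z peak and 39.2% and 37.7% an ATACseq peak, and these shares lay inside the endothelial intervals. Dnase1l3, a secreted DNase, had the highest H2A.Z fold of that list, 13.4 in WT and 14.4 in Uhrf1hepKO, at −2903 and −2914 bp from its TSS. Stab2, the scavenger receptor of sinusoidal endothelium, had an ATACseq peak in both genotypes (folds 5.49 and 5.02) inside the gene. Of 10 stellate cell genes, 4 in WT and 2 in Uhrf1hepKO had an H2A.Z peak (40%, interval 12.2 to 73.8%, and 20%, interval 2.52 to 55.6%). An ATACseq peak was found at 2 in WT (20%, interval 2.52 to 55.6%) and 1 in Uhrf1hepKO (10%, interval 0.253 to 44.5%). The list held a median of 41 CpGs at the TSS, as did all protein-coding genes. Col1a1, a fibrillar collagen, had an ATACseq peak 879 bp downstream of its TSS in WT and 861 bp downstream in Uhrf1hepKO. Of 8 cholangiocyte genes, 3 had an H2A.Z peak in each genotype (37.5%, below the share of all genes but with an interval of 8.52 to 75.5% that held it), with Spp1 highest (folds 6.09 and 6.74). An ATACseq peak was found at 1 of the 8 in WT (12.5%, interval 0.316 to 52.7%) and none in Uhrf1hepKO (0%, interval 0 to 36.9%).

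Of 12 genes of other leukocytes and blood, 1 in WT and 2 in Uhrf1hepKO had an ATACseq peak, and 3 in each had an H2A.Z peak (8.33%, 16.7% and 25%). All were below the shares of all protein-coding genes. The interval held the share of all genes for Uhrf1hepKO ATACseq (2.09 to 48.4%). It lay below that share for WT ATACseq (0.211 to 38.5%) and for H2A.Z in each genotype (5.49 to 57.2%). The 12 genes held a median of 9.5 CpGs at the TSS, and 8 of them (66.7%, interval 34.9 to 90.1%) had no peak in any library, compared with 29.5% of all protein-coding genes and 8 of the 10 Kupffer cell marker genes.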
